A study of Mus musculus with 37 samples.

Results

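The genes described here are 10 heat shock protein genes of the mouse left ventricle, chosen by name from a table of 56748 genes: Hspa1a, Hspa1b, Hspa8, Hsph1, Dnajb1, Hsp90aa1, Hspb1, Cryab, Bag3 and Hspd1. All 10 were found as 1 row each and all 10 passed the filter on low values, 0.5 FPKM or more in 4 or more libraries, as did 16579 genes in all. FPKM is the number of sequenced fragments scaled to the length of the gene and the size of the library. RNA sequencing libraries had been made from flash-frozen left ventricle of C57BL/6J mice of both sexes, 37 mice in 9 groups. Naïve mice (n = 5, no intervention in the labels) had anaesthesia only. Adr and Arrest mice were ventilated. Adr mice (sham in the labels) received an injection of saline into the left ventricle and then adrenaline by the same route. Arrest mice received potassium chloride into the left ventricle, a period of asystole, and then adrenaline with chest compressions. Hearts were taken after 0.5 d, 1 d, 3 d or 7 d, with 4 mice per arm and time. Because the Adr mice received adrenaline too, Arrest against Adr compares the asystole together with the potassium chloride and chest compressions, which cannot be told apart. Each arm against Naïve also includes the adrenaline and the procedure. RNA came from pieces of left ventricle without the apex, which hold many cell types, so a change in the number of cells of a type and a change in RNA per cell cannot be told apart.

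Heat shock proteins are chaperones that hold, refold or pass on damaged proteins. Heat, ischaemia and other stresses that unfold proteins release the transcription factor HSF1, which binds heat shock elements, inverted repeats of the bases GAA and TTC, and switches many of these genes on. In heart muscle the small heat shock proteins and the co-chaperone BAG3 also work under resting conditions, where they guard the contractile apparatus at the Z-disc, and HSC70, HSP90 and the mitochondrial chaperonin are needed in every cell.

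Heat shock elements are part of what these genes have in common, and they were looked for in RefSeq promoter windows (build GRCm38.p6, 250 bases before to 50 after each start). Windows were found for 7 of the 10 genes and not for Hspa8, Hsp90aa1 and Cryab. On both strands, since either motif reads the same on the opposite strand, 2 pairs of units were searched, GAANNTTC and TTCNNGAA, which may overlap each other by sharing a unit. At least 1 pair was found in 6 of the 7 genes (Hspa1a, Hspa1b, Hsph1, Hspb1, Bag3 and Hspd1) and in no window of Dnajb1. Over all 32851 windows, 15.1% held at least 1 pair, 7.86% GAANNTTC and 8.52% TTCNNGAA. Counted by gene, as for the 7, at least 1 pair was found in 17% of 27025 genes. A run of 3 alternating units was found in Hsph1 and Hspd1, in 0.603% of all windows and in 0.662% of all genes with a window. The stretches that hold these letters are printed with the pairs in capitals, 5′ to 3′ on the strand of the gene. Hspb1 is shown because it was the only gene of the 10 to pass a test in the main fit, Hspa1b as the classical inducible HSP70 gene, and Hsph1, Hspd1 and Bag3 for the differing number and place of their units.
Hspb1, chr5:135887669-135887918, plus strand, the 250 bases before the start: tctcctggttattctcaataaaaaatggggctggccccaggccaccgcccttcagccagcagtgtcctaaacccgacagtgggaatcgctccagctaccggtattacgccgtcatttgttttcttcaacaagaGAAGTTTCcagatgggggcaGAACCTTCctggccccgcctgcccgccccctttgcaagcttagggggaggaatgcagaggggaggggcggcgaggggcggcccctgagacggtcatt
Hspa1b, chr17:34959239-34959488, minus strand, the 250 bases before the start: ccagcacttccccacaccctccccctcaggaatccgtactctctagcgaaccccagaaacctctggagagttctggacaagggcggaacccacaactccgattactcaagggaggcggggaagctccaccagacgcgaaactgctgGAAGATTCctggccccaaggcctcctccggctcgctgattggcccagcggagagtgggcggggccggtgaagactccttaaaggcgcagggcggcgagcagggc
Hspd1, chr1:55088053-55088082, minus strand: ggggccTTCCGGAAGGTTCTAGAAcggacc
Hsph1, chr5:149636287-149636316, minus strand: agtaaaatgctgcagaTTCTGGAAAGTTCt
Bag3, chr7:128523603-128523632, plus strand: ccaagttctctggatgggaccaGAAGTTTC

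The Hspb1 stretch carries 2 separate pairs, which begin 117 and 97 bases before the start. In Hspa1b the single pair begins 104 bases before the start, and the 250 bases before the start of Hspa1a are identical to it at 247 positions. The overlapping pairs of Hspd1 lie between the starts of Hspd1 and of Hspe1, its partner in the mitochondrial chaperonin, which are read in opposite directions, so the same bases stand 144 bases before 1 start of Hspd1 and 89 before that of Hspe1. Of the annotated starts of Hsph1, the printed pairs begin 36 and 41 bases after the one further upstream, with a further pair 33 bases before it, and in Bag3 the pair begins 42 bases after the start. These are letter matches in a window and say nothing of whether a factor was bound.

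Sequencing depth was 13.2 to 30.2 M fragments on genes per library (median 14.9). All 7 ventricular cardiomyocyte markers were detected in every library. Of the skeletal muscle markers, Myh4 was at 0 in all 37 and Myh1 and Myh2 in 32 each. Tnnt3 was at 0 in 14 (highest 1.62 FPKM) and Mylpf in only 4 (highest 4.57 FPKM). Adr 3 d replicate 3 stood apart, with 9.36% of its fragments on the mitochondrial genome against 20.8% to 30.9% in the other 36 libraries, a summed FPKM of the ventricular markers of 3164 against at least 6557, and a summed FPKM of the 6 leukocyte markers of 2181 against at most 986. Named differences that rest on this library are given with and without it.

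Levels of the 10 genes spanned a wide range. On the length-scaled FPKM scale, Cryab had the highest mean over the 37 libraries (767), followed by Hspa8 (335), Hspb1 (280), Hspd1 (102), Bag3 (62.9), Hsp90aa1 (42.0), Dnajb1 (8.48), Hsph1 (6.44), Hspa1b (2.08) and Hspa1a (1.63). The constitutive and muscle chaperones were thus abundant, while the inducible HSP70 genes stood at 2 to 350 fragments per library and so carried the largest counting error. The spread within groups followed the same order only in part: the pooled SD on the log2(FPKM + 1) scale was 0.69 for Hspa1b, 0.527 for Hspa1a and 0.438 for Hsph1, against 0.236 for Hspa8 and a median of 0.297 over all genes tested.

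**Figure D1:**
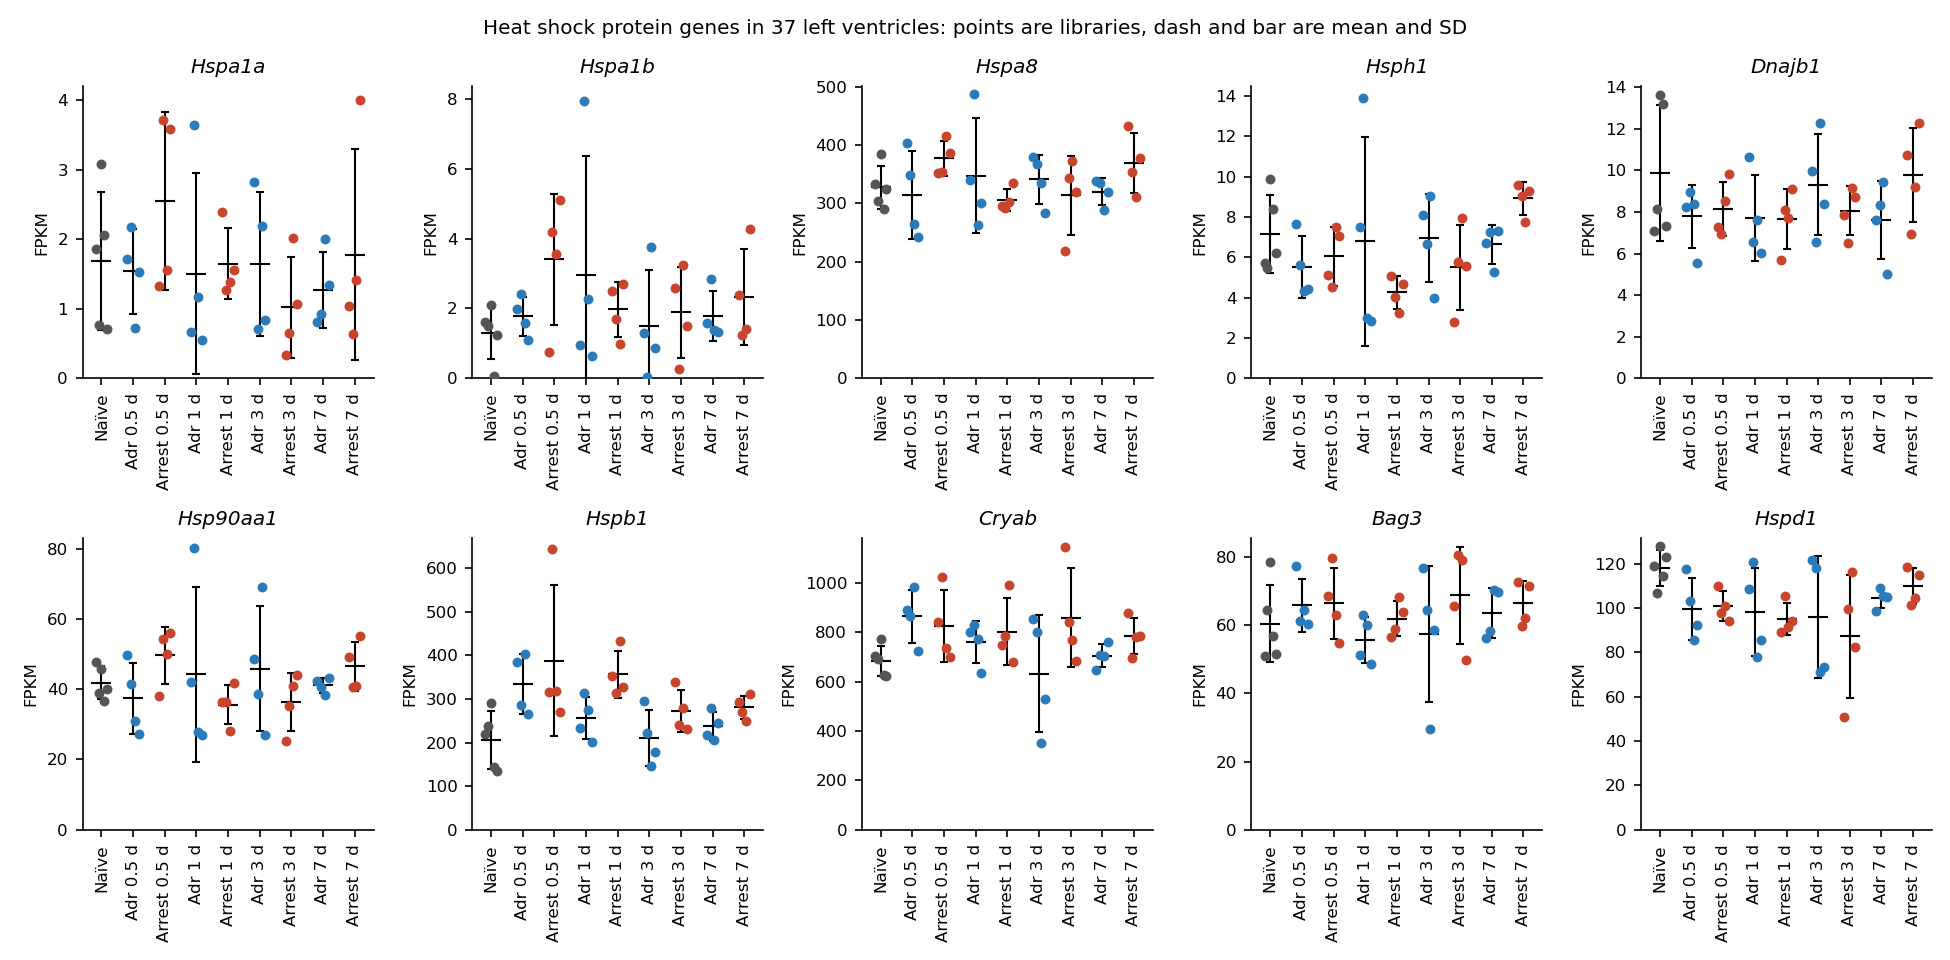
FPKM of the 10 genes in the 37 libraries (points) by group, Naïve in grey, Adr in blue and Arrest in red, with the group mean (dash) and SD (bar, which for Hspa1b in Adr 1 d and Adr 3 d runs below the axis at 0). All 4 Arrest 1 d libraries lie above all 5 Naïve libraries for Hspb1, and the library at 13.9 FPKM for Hsph1 is Adr 1 d replicate 2.

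Hspb1 was the only gene of the 10 called in any comparison. It was higher than in Naïve hearts by 0.88 ± 0.23 (log2 fold change ± SE) at 0.5 days and by 0.84 ± 0.23 at 1 day after arrest, 1.84-fold and 1.79-fold. Among the 10, no HSP70, HSP110, HSP90 or J-domain gene was called at any time in either arm, nor was Bag3 or Hspd1. None of the 10 differed between Arrest and Adr at the same time past the threshold. All tests were limma fits over the 16579 genes tested, with Benjamini-Hochberg adjusted p-values, computed separately for every comparison, and a threshold of 0.05.

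In Arrest against Naïve, 1 of 10 was called at 0.5 days, where 3.2% of all genes tested were called, and 1 of 10 at 1 day, where 7.11% were. At 3 days it was 0 of 10 beside 0.139%, and at 7 days 0 of 10 beside 0% of all genes. In Adr against Naïve, 0 of 10 were called at each time, beside 0.187% of all genes for Adr 0.5 d, 0.627% for Adr 1 d, 0% for Adr 3 d and 0% for Adr 7 d. At an unadjusted p under 0.05, limma gave 1 of the 10 at 0.5 days after Adr and 0 at the 3 later Adr times. Of all genes, 14%, 14.7%, 13.9% and 6.17% were under 0.05 at those 4 times. After arrest it gave 1, 2, 1 and 1 of the 10 at the 4 successive times, beside 18.1%, 21.7%, 13.7% and 5.14% of all genes. Where no gene at all was called, limma gave 2297 (Adr 3 d), 1023 (Adr 7 d) and 852 (Arrest 7 d) of all genes under an unadjusted 0.05. These 8 comparisons share the same 5 Naïve libraries. Median log2 fold changes of the 10 genes ran from -0.151 at Arrest 3 d, beside 0.0104 for all genes, to 0.219 at Arrest 0.5 d, beside 0.0306.

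Arrest against Adr gave 0 of 10 at 0.5, 1 and 3 days, beside 0% of all genes at each (642, 1093 and 891 under an unadjusted 0.05), and 0 of 10 at 7 days, beside 0.00603%. Unadjusted, limma gave 1 of 10 under 0.05 at 3 days, beside 5.37% of all genes. It gave 0 at 0.5, 1 and 7 days, beside 3.87%, 6.59% and 2.53%. At 7 days all 10 fitted differences were positive, with a median of 0.190 beside 0.00392 for all genes, and none had an unadjusted p under 0.05. The genes share libraries, so 10 signs are not 10 observations. Early (0.5 and 1 day) against late (3 and 7 days) gave 0 of 10 in Adr, beside 1.28% of all genes, and 0 of 10 in Arrest, beside 4.23%. Under an unadjusted 0.05 were 2 of the 10 in Adr, beside 13.3% of all genes, and 1 in Arrest, beside 17.9%. The F test for any difference among the 9 groups called 0 of 10, beside 3.89% of all genes. Under an unadjusted 0.05 it gave 1, Hspb1 at an adjusted p of 0.0617, beside 17.3% of all genes.

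**Figure D2:**
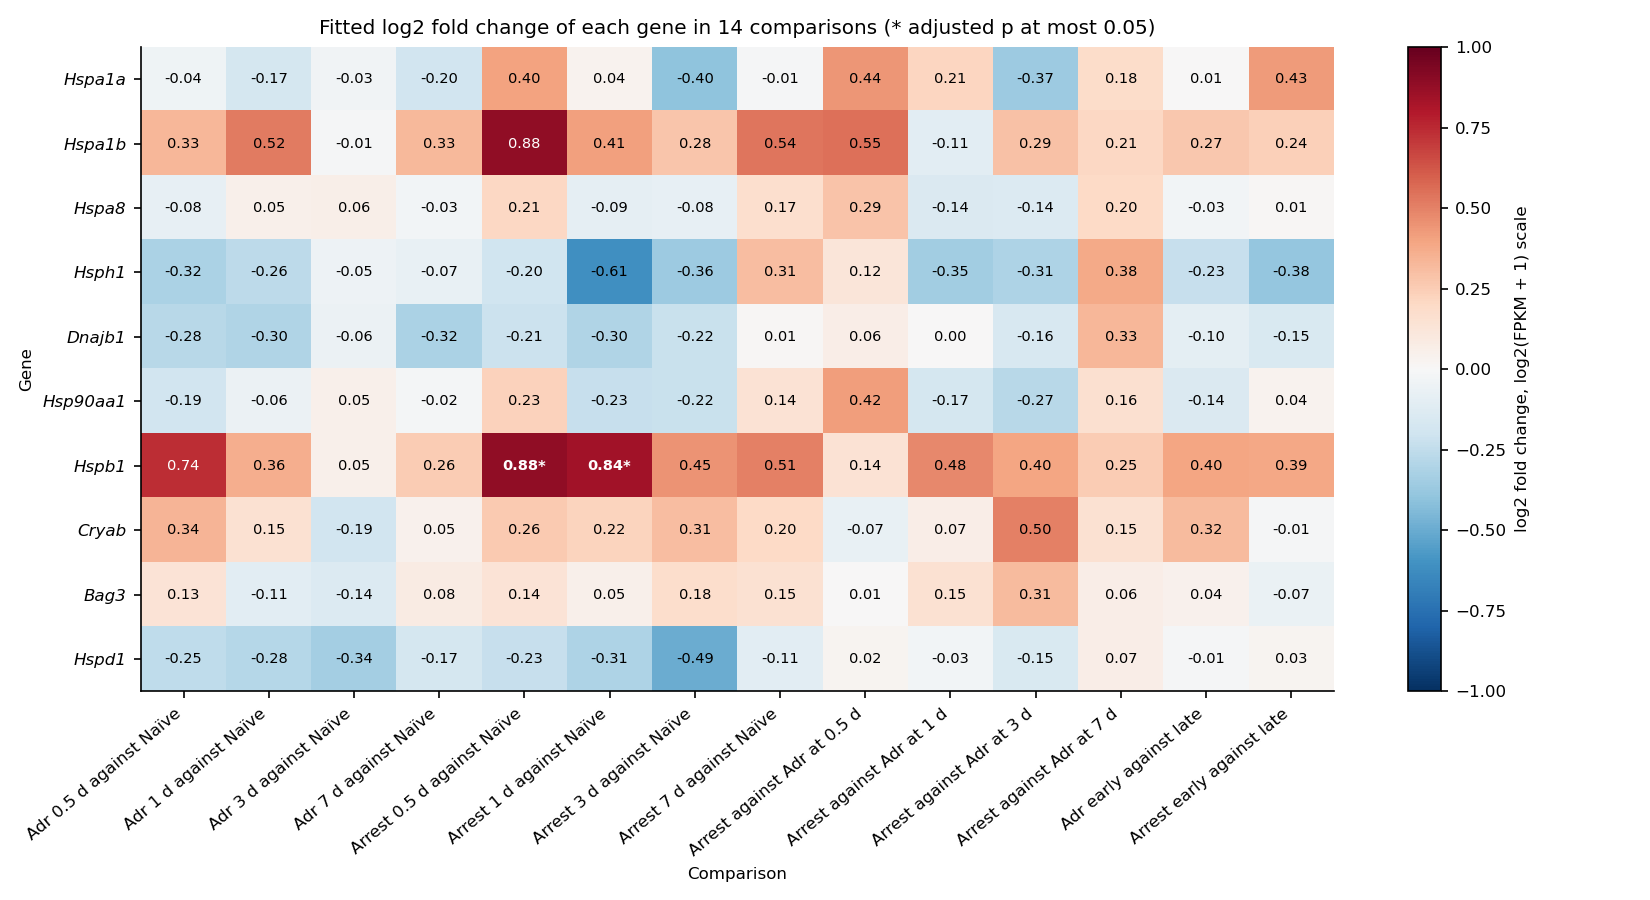
Fitted log2 fold changes of the 10 genes (rows) in 14 comparisons (columns), on the log2(FPKM + 1) scale from blue (lower in the group named first) to red (higher), with a star at an adjusted p of at most 0.05. The stars stand at Hspb1 in Arrest 0.5 d and Arrest 1 d against Naïve, 0.88 and 0.84.

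Hspb1 (ENSMUSG00000004951, chromosome 5) encodes HSP27, called HSP25 in the mouse, a small heat shock protein that holds unfolding proteins and protects actin filaments. In the Naïve libraries it stood at 220, 238, 291, 145 and 134 FPKM. At 0.5 days after arrest it stood at 317, 645, 317 and 271 FPKM, and at 1 day at 352, 314, 433 and 326. The 1 day values all lay above the highest Naïve value, whereas at 0.5 days the lowest Arrest library fell below it and 1 library stood far above the rest.

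Group means of Hspb1 were 206 ± 65.9 FPKM in Naïve (SD, n = 5), 388 ± 173 in Arrest 0.5 d and 357 ± 53.7 in Arrest 1 d (n = 4 each). The adjusted p was 0.0285 at 0.5 days (95% interval of the log2 difference 0.42 to 1.35) and 0.0209 at 1 day (0.38 to 1.30), by limma. Neither call was secure: the 0.5 day adjusted p rose to 0.185 without Arrest 0.5 d replicate 2, 0.0716 without Naïve replicate 4 and 0.0822 without Naïve replicate 5, and that at 1 day to 0.0543 without Arrest 1 d replicate 1, 0.0933 without replicate 3, 0.0564 without Naïve replicate 4 and 0.0680 without Naïve replicate 5. With a library left out the log2 difference was at least 0.61 at 0.5 days and 0.70 at 1 day. Under the other alternatives it was at least 0.67 at 0.5 days, with 7 of 12 losing the call (adjusted p up to 0.123), and at least 0.55 at 1 day, the value with quantile normalization, with 4 of 12 losing it (up to 0.391). The summed FPKM of the ventricular cardiomyocyte markers was 10954 to 13033 in Naïve, 9295 to 13619 in Arrest 0.5 d and 12700 to 14599 in Arrest 1 d, with Naïve replicates 4 and 5, the lowest for Hspb1, also the lowest of the Naïve libraries, and the part of this in the result was not tested.

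Hspb1 was not called after Adr. At 0.5 days the Adr libraries stood at 384, 286, 403 and 266 FPKM (mean 335 ± 68.7), a log2 difference from Naïve of 0.74 ± 0.23 with an adjusted p of 0.132. The Adr and Arrest libraries overlapped at that time, with a difference of 0.14 and a 95% interval from -0.34 to 0.63. At 1 day Adr stood at 234, 315, 275 and 202 FPKM, 0.48 below Arrest on the log2 scale with an interval of the difference from -0.01 to 0.97. Both intervals include 0, so a difference between the arms was not resolved at either time.

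Early and late libraries of Hspb1 overlapped in both arms. Arrest libraries stood at 339, 240, 280 and 230 FPKM at 3 days and at 292, 270, 251 and 311 at 7 days, and Adr libraries at 295, 222, 147 and 179 at 3 days and at 218, 279, 205 and 245 at 7 days. Early against late gave 0.40 ± 0.17 in Adr (adjusted p = 0.287, limma) and 0.39 ± 0.17 in Arrest (0.215). The order of group means ran from Arrest 0.5 d through Arrest 1 d, Adr 0.5 d, Arrest 7 d, Arrest 3 d, Adr 1 d, Adr 7 d and Adr 3 d to Naïve, and no neighbours in that order were further apart than the larger of their SDs. Of the windows of 150 bases in the longest Hspb1 transcript of GENCODE M21, 36.6% are also found in the pseudogene Hsp25-ps1, whose own FPKM was at most 3.57.

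Cryab (ENSMUSG00000032060, chromosome 9), the αB-crystallin of the Z-disc and the most abundant of the 10, did not pass the test in any comparison. Naïve libraries stood at 706, 691, 773, 626 and 624 FPKM. Those of Adr 0.5 d stood at 892, 866, 982 and 723, and those of Arrest 0.5 d at 844, 1026, 738 and 701. The early libraries were mostly above the Naïve ones but overlapped them, with log2 differences of 0.34 ± 0.19 (Adr) and 0.26 ± 0.19 (Arrest).

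The largest difference of Cryab between the arms was at 3 days, 0.50 ± 0.20 higher in Arrest, with an adjusted p of 0.897. Adr libraries stood there at 852, 802, 350 and 529 FPKM and Arrest libraries at 1145, 842, 769 and 684. The lowest value is Adr 3 d replicate 3, the library with few ventricular markers, and without it the difference was 0.244. Hspb2, a muscle small heat shock protein gene whose transcripts share 10.6% of Cryab's windows of 150 bases, was not called either, with 15.2 to 43.0 FPKM in Naïve and 40.5 to 63.6 in Adr 0.5 d (0.98 ± 0.31, adjusted p = 0.139).

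Bag3 (ENSMUSG00000030847, chromosome 7) encodes a co-chaperone that links HSP70 and small heat shock proteins to the disposal of damaged Z-disc proteins by autophagy. It varied little: Naïve libraries stood at 51.0, 64.4, 78.3, 56.9 and 51.6 FPKM, those of Arrest 0.5 d at 68.5, 79.6, 62.9 and 54.7, and those of Arrest 1 d at 56.6, 58.9, 68.2 and 63.8. Its 14 fitted log2 differences lay between -0.14 and 0.31, and the highest bound of their 95% intervals was 0.70. The lowest library was again Adr 3 d replicate 3, at 29.5 FPKM, and without it the difference of Adr 3 d from Naïve turned from -0.14 to 0.15.

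The inducible HSP70 genes Hspa1a (ENSMUSG00000091971) and Hspa1b (ENSMUSG00000090877), neighbours on chromosome 17 that encode nearly the same protein, are the classical targets of HSF1. Hspa1b stood at 1.62, 1.48, 2.09, 0.0525 and 1.25 FPKM in Naïve, and at 0.764, 4.20, 3.56 and 5.10 in Arrest 0.5 d. Hspa1a stood at 1.85, 0.764, 3.08, 2.06 and 0.702 in Naïve, and at 1.32, 3.71, 1.56 and 3.59 in Arrest 0.5 d. For Hspa1b 3 of the 4 Arrest libraries lay above every Naïve library and 1 lay below 4 of them.

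The log2 difference of Hspa1b at that time was 0.88 ± 0.44, with an adjusted p of 0.280, and its 95% interval ran from -0.01 to 1.78. That of Hspa1a was 0.40 ± 0.34 (adjusted p = 0.569). With 1 added to each FPKM before the logarithm, these values understate the fold change of genes this low. Since 40.5% of the windows of 150 bases in Hspa1b are found in Hspa1a as well, the split of reads between them is uncertain, and the share of Hspa1b in their joint fragments ran from 2.35% (Naïve replicate 4, with 2 fragments) to 87.7%. Summed, the pair stood at 1.95 to 5.17 FPKM in Naïve and 2.09 to 8.68 in Arrest 0.5 d, a log2 difference of 0.73 ± 0.43 (adjusted p = 0.375). The highest sum of all, 11.6 FPKM, was in Adr 1 d replicate 2.

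Hspa8 (ENSMUSG00000015656, chromosome 9), the constitutive HSC70, was the steadiest of the 10. Naïve libraries stood at 333, 305, 386, 290 and 324 FPKM, those of Arrest 0.5 d at 352, 355, 416 and 387, and those of Arrest 1 d at 296, 292, 302 and 334. The Naïve libraries overlapped those of both Arrest groups, while all 4 of Arrest 0.5 d lay above all 4 of Arrest 1 d, a difference not tested here. The 14 fitted log2 differences lay between -0.14 and 0.29 with 95% intervals inside -0.49 to 0.64. Its transcript shares 20.2% of its windows with the pseudogene Gm15459, at 6.94 to 19.3 FPKM.

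Hsph1 (ENSMUSG00000029657, chromosome 5) encodes HSP110, the exchange factor that lets HSP70 release ADP. Naïve libraries stood at 5.72, 5.46, 9.90, 8.41 and 6.22 FPKM and those of Arrest 1 d at 5.08, 4.01, 3.25 and 4.67. All 4 Arrest values were below all 5 Naïve values, but the log2 difference of -0.61 ± 0.28 had an adjusted p of 0.191. In Arrest 7 d the libraries stood at 9.57, 9.05, 7.75 and 9.29 FPKM, above the 4 of Adr 7 d at 6.71, 7.27, 5.26 and 7.31, with a log2 difference of 0.38 and an interval from -0.22 to 0.99. Neither difference was called.

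Dnajb1 (ENSMUSG00000005483, chromosome 8) encodes HSP40, the J-domain protein that hands clients to HSP70 and stimulates its ATPase. It stood at 7.10, 8.13, 13.6, 13.2 and 7.31 FPKM in Naïve, at 7.29, 6.96, 8.51 and 9.82 in Arrest 0.5 d and at 5.67, 8.07, 7.73 and 9.12 in Arrest 1 d. No group was separate from Naïve, and its fitted log2 differences lay between -0.32 and 0.33.

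Hsp90aa1 (ENSMUSG00000021270, chromosome 12), the inducible HSP90, stood at 47.9, 39.0, 45.7, 36.6 and 40.05 FPKM in Naïve, at 38.1, 54.4, 49.9 and 56.0 in Arrest 0.5 d and at 36.2, 36.4, 28.1 and 41.7 in Arrest 1 d. In Arrest 0.5 d 3 of the 4 libraries lay above every Naïve library, with a log2 difference of 0.23 ± 0.24. The Adr 1 d group was the widest, at 41.9, 80.1, 27.8 and 27.0 FPKM.

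Hspd1 (ENSMUSG00000025980, chromosome 1) encodes HSP60, the chaperonin of the mitochondrial matrix. Its Naïve libraries, at 119, 107, 128, 114 and 123 FPKM, had the highest group mean of the 9, and all 8 fitted differences from Naïve were negative. Against the same 5 libraries the 8 differences are not independent. The largest, -0.49 ± 0.17 in Arrest 3 d (51.0, 99.4, 116 and 82.7 FPKM, adjusted p = 0.180), shrank to -0.26 without Arrest 3 d replicate 1. In Arrest 1 d the libraries stood at 89.5, 106, 91.6 and 94.0, all below Naïve, with an adjusted p of 0.287. Hspe1, the co-chaperonin gene that shares the upstream element, had positive differences from Naïve at 0.5 and 1 day in both arms, between 0.24 and 0.32, none called.

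Genes of the wider chaperone network showed as few calls. Of 83 genes in 9 lists of relatives and partners, 80 were tested. In Arrest against Naïve 1 was called at 0.5 days and 4 at 1 day (2 higher, 2 lower), and 3 in Arrest early against late (2 higher, 1 lower), beside 3.2%, 7.11% and 4.23% of all genes. In the other 11 comparisons limma called 0 of the 80, beside at most 1.28% of all genes. The F test called 2 of the 80, Hspa12a and Hspa12b, beside 3.89% of all genes. Under an unadjusted p of 0.05 limma gave 13, 12, 10 and 0 of the 80 at the 4 successive Adr times against Naïve. Of all genes, 14%, 14.7%, 13.9% and 6.17% were under it there. After arrest it gave 10, 19, 9 and 2, beside 18.1%, 21.7%, 13.7% and 5.14%. Arrest against Adr gave 4, 6, 7 and 0, beside 3.87%, 6.59%, 5.37% and 2.53%. Early against late gave 18 in Adr, beside 13.3%, and 19 in Arrest, beside 17.9%. The F test gave 16, beside 17.3%.

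Hspa12a, a distant HSP70 relative, passed the test as lower than in Naïve at 0.5 and 1 day after arrest. It went from 3.96, 5.33, 4.01, 4.83 and 4.63 FPKM in Naïve to 2.10, 2.35, 2.86 and 1.99 at 0.5 days and 2.01, 1.74, 0.985 and 3.38 at 1 day after arrest. Those groups did not overlap with Naïve at either time, and the log2 differences were -0.74 ± 0.18 (adjusted p = 0.0229) and -0.93 ± 0.18 (adjusted p = 0.00245). The call at 1 day was kept with each library left out (adjusted p at most 0.0247) and in 11 of 12 other alternatives, and was lost with the description number as covariate (-0.64, adjusted p = 0.280). That number, given for each sample in its description, was lower in every Arrest 1 d sample than in every Naïve sample. Number and group thus go together in that comparison. The call at 0.5 days was lost without Arrest 0.5 d replicate 1 (0.0631), 2 (0.0685) or 4 (0.0594). In Arrest it was also lower early than late, by -0.48 ± 0.14 (adjusted p = 0.0392), a call lost without any 1 of 12 of the Arrest libraries (up to 0.111 without Arrest 1 d replicate 3). After Adr all libraries were also below Naïve at 0.5 days (-0.43 ± 0.18, adjusted p = 0.271) and 1 day (-0.44 ± 0.18, adjusted p = 0.248), neither called. Arrest against Adr was not called either, at -0.31 (95% interval -0.70 to 0.08) and -0.49 (-0.88 to -0.10, adjusted p = 0.691). Its relative Hspa12b, an endothelial gene, went the other way between early and late Arrest, 0.45 ± 0.12 higher early (adjusted p = 0.0263), where the libraries stood at 11.4 to 15.7 FPKM at 0.5 and 1 day and 7.40 to 14.03 at 3 and 7 days. Adr early against late gave 0.39 ± 0.12 (adjusted p = 0.0992). Against Naïve, Hspa12b differed by 0.56 and 0.65 at 0.5 and 1 day after Adr (adjusted p = 0.108 and 0.05004) and by 0.39 and 0.50 after arrest (0.188 and 0.0527), none called. The Arrest early against late call was lost without Arrest 0.5 d replicate 3 (0.0546), 1 d replicate 3 (0.0615), 3 d replicate 3 (0.0648) or 7 d replicates 1 (0.0524) or 3 (0.0727).

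Of the remaining calls at Arrest 1 d, Hspa4l, an HSP110 relative, was lower at 2.38, 3.18, 2.83 and 3.45 FPKM against 4.36 to 5.27 in Naïve (-0.56 ± 0.16, adjusted p = 0.0270). Sqstm1, the p62 receptor that carries ubiquitinated proteins to autophagy, was higher at 165, 155, 201 and 97.4 FPKM against 69.8 to 87.8 (0.85 ± 0.22, adjusted p = 0.0187). Pfdn1, a subunit of the prefoldin that feeds the chaperonin CCT, was higher at 61.5, 71.4, 88.4 and 74.8 FPKM against 29.4 to 57.6 (0.66 ± 0.18, adjusted p = 0.0222). Each of these 3 calls was lost without Arrest 1 d replicate 3, with adjusted p of 0.0799 (Hspa4l), 0.0998 (Sqstm1) and 0.102 (Pfdn1) by limma. Those of Hspa4l and Sqstm1 were also lost without replicate 1 (0.108 and 0.0642), and those of Hspa4l and Pfdn1 without Naïve replicate 5 (0.0592 and 0.0783). Of 12 other alternatives, 3 lost the call of Hspa4l (adjusted p up to 0.473), 2 that of Sqstm1 (up to 0.248) and 5 that of Pfdn1 (up to 0.313). Cdc37l1, an HSP90 co-chaperone relative, was 0.39 ± 0.11 higher early than late in Arrest (adjusted p = 0.0409), lost without any 1 of 13 of the Arrest libraries (up to 0.101 without Arrest 1 d replicate 3). Hsf1 itself was not called, with 3.84 to 5.46 FPKM in Naïve, 3.62 to 4.58 in Arrest 0.5 d and 2.39 to 4.13 in Arrest 1 d.

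How the 10 genes varied together was described by Pearson's r of log2(FPKM + 1) over the 37 libraries after each group's mean was subtracted. The values share libraries and their scaling and are given without a p. Hspa8, Hsph1 and Hsp90aa1, which work as partners in the cytosol, moved together, with r of 0.82 for Hspa8 with Hsph1, 0.78 for Hspa8 with Hsp90aa1 and 0.83 for Hsph1 with Hsp90aa1, and Hspd1 followed Hspa8 at 0.76. Hspb1, Cryab and Bag3, the Z-disc chaperones, formed another set, at 0.75 for Hspb1 with Cryab, 0.65 for Hspb1 with Bag3 and 0.75 for Cryab with Bag3. Across the sets r was mostly lower, for example 0.03 for Hsph1 with Hspb1 and -0.15 for Hsp90aa1 with Cryab. The highest across them was Bag3 with Hspd1 at 0.49, above the 0.46 of Hspd1 with Hsp90aa1. Dnajb1 was at most 0.36 with any of the 9 others.

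**Figure D3:**
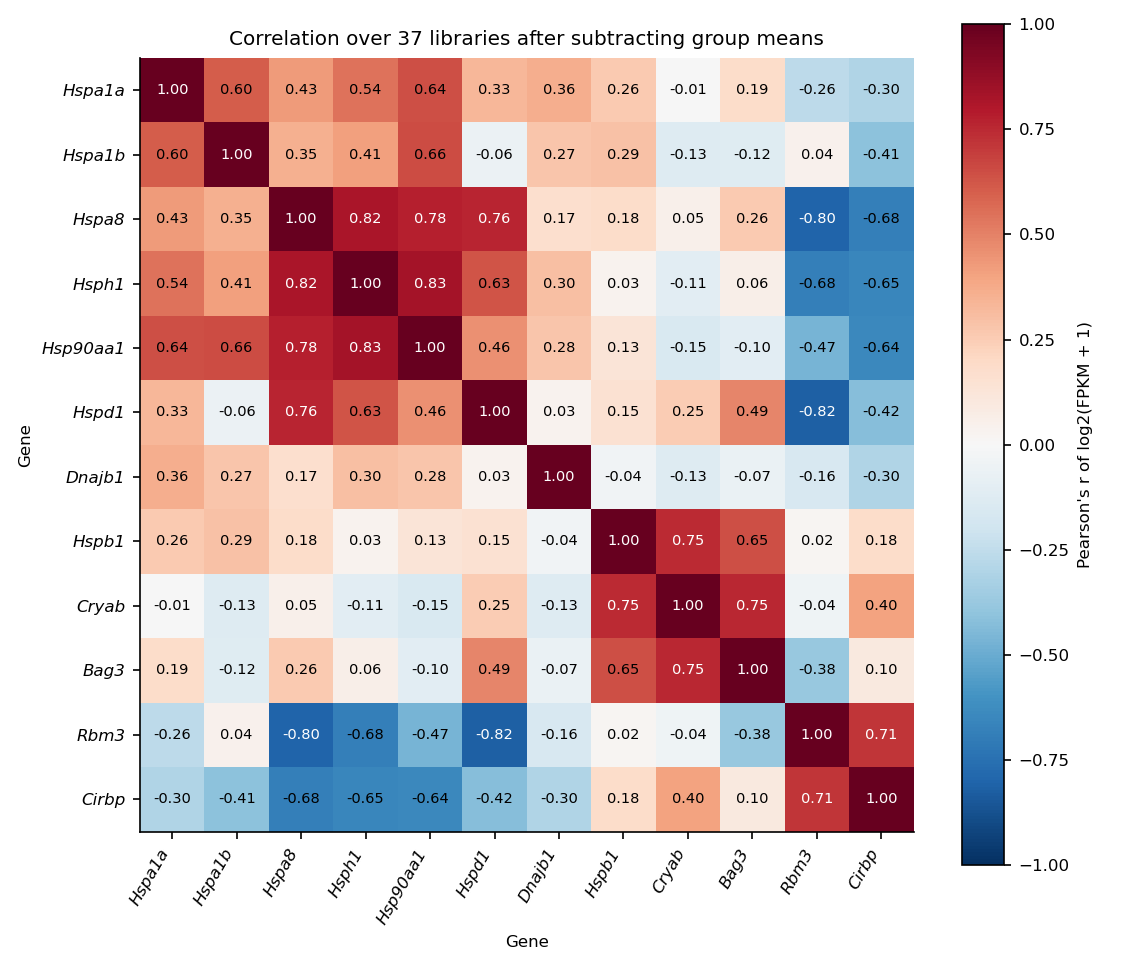
Pearson's r of log2(FPKM + 1) over 37 libraries after the mean of each group was subtracted, for the 10 genes and the cold-inducible genes Rbm3 and Cirbp, from blue (-1) to red (1). The cytosolic set around Hspa8 and the set of Hspb1, Cryab and Bag3 stand out as blocks, and Rbm3 has an r of -0.80 with Hspa8.

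Not every one of these relations was free of single libraries. Without subtracting group means, r of Cryab with Bag3 was 0.743 and fell to 0.549 when Adr 3 d replicate 3 was left out, while Hspb1 with Cryab stayed at 0.759 (0.760 with it). Leaving out Adr 1 d replicate 2 left Hsph1 with Hsp90aa1 at 0.756 (0.798 with it). Hspa1a and Hspa1b correlated at 0.60 within groups, and each with Hsp90aa1 at 0.64 and 0.66.

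The cold-inducible RNA-binding protein genes Rbm3 and Cirbp respond to a fall in temperature, where the heat shock genes respond to a rise. Both ran against the cytosolic set of Hspa8, Hsph1 and Hsp90aa1. Within groups, r of Rbm3 was -0.80 with Hspa8, -0.68 with Hsph1, -0.46 with Hsp90aa1 and -0.82 with Hspd1. With the Z-disc chaperones it was 0.02 for Hspb1 and -0.04 for Cryab, but -0.38 for Bag3. Cirbp gave -0.68 with Hspa8, -0.65 with Hsph1 and -0.64 with Hsp90aa1. For Hspa1a, Hspa1b and Dnajb1 the relation was weaker. Their r was -0.26, 0.04 and -0.16 with Rbm3 and -0.3, -0.41 and -0.3 with Cirbp. In Arrest 1 d, where Hsph1 was lowest, Rbm3 stood at 31.6, 22.3, 27.1 and 12.5 FPKM, all above the 6.16 to 10.9 of Naïve, a log2 difference of 1.31 ± 0.42 with an adjusted p of 0.0546, which misses the threshold. Within groups the spread was wide too: Rbm3 stood at 6.43, 8.57, 27.6 and 18.5 FPKM in Adr 0.5 d, where Hsph1 stood at 7.63, 5.64, 4.34 and 4.45.

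**Figure D4:**
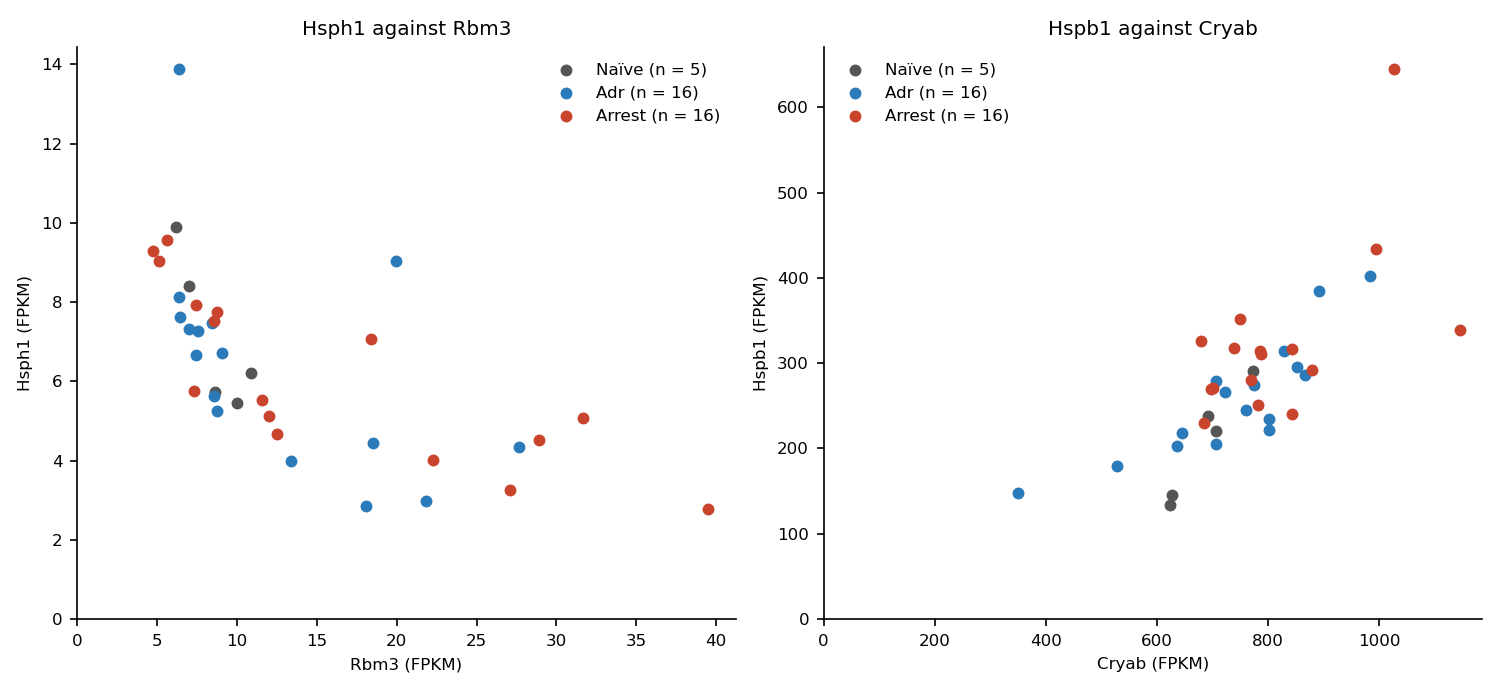
FPKM of Hsph1 against Rbm3 (left) and of Hspb1 against Cryab (right), each point 1 of 37 libraries, Naïve in grey, Adr in blue and Arrest in red. Hsph1 is low where Rbm3 is high, with Arrest 3 d replicate 1 at 39.5 FPKM of Rbm3 and 2.77 of Hsph1, and Hspb1 rises with Cryab.

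Single libraries marked the ends of that axis. Adr 1 d replicate 2 was the highest of the 37 for Hspa1b (7.95 FPKM), Hspa8 (488), Hsph1 (13.9) and Hsp90aa1 (80.1), and its summed FPKM of the atrial markers was 693, the highest of all. Arrest 3 d replicate 1 was the lowest for Hspa1a (0.340), Hspa8 (218), Hsph1 (2.77), Hsp90aa1 (25.4) and Hspd1 (51.0), and the highest for Cryab (1145), Rbm3 (39.5) and Cirbp (36.6). Its ventricular marker sum, 6561 FPKM, was the third lowest. The part of tissue makeup in these extremes was not tested. Without Adr 1 d replicate 2, the difference of Arrest from Adr at 1 day turned from -0.11 to 0.40 for Hspa1b, from -0.35 to 0.04 for Hsph1 and from -0.17 to 0.16 for Hsp90aa1.

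The genes most like each of the 10 were ranked by Pearson's r over the 37 libraries, here without subtracting group means. Among the 11549 tested genes with a mean of at least 1 FPKM, the nearest differed between the sets. The nearest to Hspa8 were Chordc1, an HSP90 co-chaperone (0.79), its own pseudogene Gm15459 (0.73) and Dnaja1, a J-domain partner (0.72). For Hsph1 they were Cbx1 (0.80), P4ha1 (0.77) and Hnrnpc (0.74), for Hsp90aa1 P4ha1 (0.77), Serpinh1 (0.74), the collagen chaperone HSP47, and Caprin1 (0.72), and for Hspd1 Fkbp4 (0.88), Rtn4ip1 (0.84) and Asph (0.83). For Cryab the nearest were Actn2, the α-actinin of the Z-disc (0.87), and the small heat shock protein genes Hspb7 (0.84) and Hspb6 (0.83). Without Adr 3 d replicate 3, r of Cryab was 0.746 with Hspb7 and 0.695 with Hspb6. For Bag3 they were Pacsin3 (0.84), Dmpk (0.84) and Spg7 (0.83), and for Hspb1 Abra, an actin-binding activator of muscle (0.75), Cystm1 (0.74) and Slc25a5 (0.73). The r of Cryab with Actn2, and those of the genes nearest Bag3 and Hspb1, were not computed without Adr 3 d replicate 3. How far they rest on that library is thus not known. The low genes had no close match, with the best r at 0.64 for Hspa1a (Mdm2), 0.63 for Hspa1b (Dusp11) and 0.61 for Dnajb1 (Zfp217).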

How the data were processed

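Left ventricular RNA of 37 mice was sequenced as paired-end reads. The authors aligned reads with HISAT2 and deposited 1 table of FPKM per gene and library. The genome build of that table, its annotation and the counting tool are not given in the sources used here, so no position from it is printed. The deposited FPKM were already even between libraries by median ratios. The median ratio of a library's genes to their geometric mean over libraries was 1.013 in the lowest and in the highest library. The alternative that rescales by median ratios could therefore not change a result. Fragment numbers were recovered from the FPKM steps (100% of values above 0 were whole within 0.01). Since the values are FPKM, the count test of the study was not run, and limma 3.58.1 in R 4.3.3 was fitted to log2(FPKM + 1) of all 37 libraries with 9 group means (empirical Bayes with trend), keeping genes that reached 0.5 FPKM in 4 or more libraries. The study left out a 3 d Adr sample of poor quality without saying which, and all 4 columns of that group were kept here. Correlations and sequence counts were made in Python 3.11.15. The fit was tested on simulated data.

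The 10 genes and the lists were chosen with earlier results of these data known. All 10 were named with values, and of the other lists those past the threshold (at most 6 a comparison) and Hspe1, Hspb2, Hsf1, Cirbp and Rbm3. Promoters are from RefSeq (GRCm38.p6) and windows of 150 bases from the longest transcript of each gene in GENCODE M21. Alternatives were other scalings, pseudocount 0.1, other filters, removal of a gene length trend, sample weights, covariates and each library left out. Counting Hspa1a and Hspa1b as 1 gene was chosen after seeing the data.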

Additional observations from a re-analysis of the deposited data

Results flagged for a closer look

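Among the 90 sets of 4 or 5 libraries (10 genes in 9 groups), 2 held a library set far apart from the others of its group by Dixon's ratio of gap to range. Chance sets apart about 1 in 20, or 4.5 of 90. Hspb1 in Arrest 0.5 d replicate 2 stood at 645 FPKM, against 271 to 317 in the other 3 libraries of the group, and the Arrest 0.5 d call of Hspb1 was lost without this library. Hspa1b in Adr 7 d replicate 2 stood at 2.83 FPKM, against 1.32 to 1.57 in the other 3, and no call rested on it.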

How the results depend on the processing

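Of 369 recounts of the called genes among the 10, 348 stayed as reported. Outside Arrest 0.5 d and Arrest 1 d against Naïve the reported count was 0, and a 0 that stayed 0 is among the 348. The call of Hspb1 at Arrest 0.5 d was lost in 3 of 10 fits with a library left out and in 7 of 12 others. At Arrest 1 d it was lost in 4 of 10 and 4 of 12. At Arrest 0.5 d the call of Hspb1 was lost, leaving 0 of 10, under quantile normalization (log2 difference 0.69, adjusted p = 0.0650, limma), no filter (0.88, 0.0535), removal of the gene length trend (0.78, 0.0615), sample weights (0.67, 0.0663), the replicate block (0.75, 0.0746), the description number as covariate (0.83, 0.0712) and a fit of the compared groups alone (0.88, 0.123). At Arrest 1 d 0 of 10 were left with the length trend removed (0.71, 0.0595), the replicate block (0.70, 0.0602) and the description number (0.69, 0.391). Under quantile normalization there, Hspb1 was lost (0.55, 0.119) and Hspd1 was called instead (-0.54, 0.0345), so this unchanged count is among the 348. With each library left out the counts ran from 0 to 1 at both times. For any difference among groups the count ran from 0 to 1, with 1 without Naïve replicate 3, Arrest 0.5 d replicate 4 or Adr 3 d replicate 1, and 1 with the filter at a mean of 1 FPKM. No called value changed sign. Of 3152 values that were not called, 187 changed sign and 1 gained a call. Calls over all genes moved by more than 1.5 times from 531 at Arrest 0.5 d to 280 (replicate block), 235 (description number), 323 (no filter), 125 (without Arrest 0.5 d replicate 2) and 906 (without Adr 3 d replicate 3), and from 1179 at Arrest 1 d to 768 (replicate block), 34 (description number) and 1947 (sample weights). The causes were not tested, and the description numbers of Arrest 1 d and Naïve do not overlap. Same-numbered libraries did not deviate together (median r 0.00194 over 144 pairs). Depth limits Hspa1a and Hspa1b most, at 15 to 348 and 2 to 350 fragments.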
